A study of Arabidopsis thaliana with 24 samples.

Results

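Chlorophyll synthesis enzymes were followed here as RNA structures. A list of 10 loci was taken by locus code: HEMA1, GSA1, GSA2, GUN5, CHLI1, CHLD, CRD1, PORB, PORC and CHLP. Of these, 6 were in the deposited table of reactivity statistics, each with 1 isoform, among 8956 loci and 12978 transcripts in all. They are HEMA1 (AT1G58290), GSA1 (AT5G63570), GSA2 (AT3G48730), CHLI1 (AT4G18480), CHLD (AT1G08520) and CHLP (AT1G74470). GUN5, CRD1, PORB and PORC were not analysed here. The list follows enzyme function and uses no measured value as a rule, but it was drawn up with earlier results of these data known.

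Chlorophyll is made in plastids from glutamate. HEMA1, a glutamyl-tRNA reductase, and the glutamate-1-semialdehyde aminotransferases GSA1 and GSA2 make the precursor 5-aminolevulinic acid, which also feeds heme. Magnesium chelatase, with the subunits CHLI, CHLD and CHLH, then commits the porphyrin ring to chlorophyll, and CHLP, a geranylgeranyl reductase, supplies the phytyl tail. The pathway is most active in green tissue, and all of these enzymes are encoded in the nucleus.

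The study asks whether salt alters the folding of RNA in living tissue, and whether shoots and roots differ in this. Hydroponic Col-0 plants, labelled 24 days old, were compared as salt-treated roots (100 mM NaCl for 48 h), control roots, salt-treated shoots and control shoots. Col-0 is the standard laboratory accession, and no group carries a mutation or transgene. Excised organs were kept for 5 min in buffer with 0.75% dimethyl sulfate (DMS), which methylates unpaired adenines and cytosines, or in buffer alone, and stops of reverse transcription were read by Structure-seq2. Each condition had 3 biological replicates with DMS and 3 without, each library from the pooled organs of many plants. The authors deposited 1 combined value per transcript and condition, on a reactivity scale of their own, so no spread between replicates could be computed, no test was possible and the read depth is unknown. Every difference below is a description of these values. Reactivity is an average over the cells of an organ, so a shift in which cells gave the RNA and a different structure within cells cannot be told apart. Read depth and the scaling of reactivity could also differ between conditions, and their part in any difference below was not tested. The table holds no expression levels, so the organ labels were not checked against marker genes.

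All 6 transcripts were among the more reactive of the transcriptome in every condition. A higher mean reactivity stands for more accessible bases, or for a few very reactive ones. CHLP had mean reactivities of 0.570 in salt-treated root, 0.696 in control root, 0.497 in salt-treated shoot and 0.427 in control shoot, the highest of the 6 in each condition. The share of loci below it was 99.8% in salt-treated root, 99.96% in control root, 99.8% in salt-treated shoot and 99.9% in control shoot. CHLI1, the ATPase subunit of magnesium chelatase, had 0.532 in salt-treated root, 0.486 in control root, 0.409 in salt-treated shoot and 0.385 in control shoot. CHLD, its partner subunit, had 0.521 in salt-treated root, 0.481 in control root, 0.395 in salt-treated shoot and 0.370 in control shoot. CHLD lay just below CHLI1 in each condition.

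Of the enzymes of the first steps, HEMA1 and GSA1 lay below the chelatase subunits in every condition, and GSA2 lay above CHLD in all but control shoot. HEMA1 had 0.322 in salt-treated root, 0.310 in control root, 0.351 in salt-treated shoot and 0.321 in control shoot, the lowest of the 6 in each condition. GSA1 had 0.382 in salt-treated root, 0.353 in control root, 0.354 in salt-treated shoot and 0.348 in control shoot. GSA2, which catalyses the same reaction, had 0.532 in salt-treated root, 0.519 in control root, 0.406 in salt-treated shoot and 0.346 in control shoot. The GSA transcripts were nearly equal in control shoots and far apart in roots. They encode close relatives, and reads shared between them would make their values uncertain.

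The median over all 8956 loci was 0.210 in salt-treated root, 0.198 in control root, 0.266 in salt-treated shoot and 0.273 in control shoot. The members' medians were 0.526, 0.483, 0.400 and 0.359 in the same order. The gap between the highest and the lowest member was 1.77-fold in salt-treated root, 2.25-fold in control root, 1.42-fold in salt-treated shoot and 1.33-fold in control shoot. Members therefore spread out more in root than in shoot. The highest value of all loci was also greater in root. It was 0.843 in salt-treated root, 1.21 in control root, 0.728 in salt-treated shoot and 0.505 in control shoot. In order of level, CHLP was followed in control root by GSA2, CHLI1, CHLD, GSA1 and HEMA1, and in control shoot by CHLI1, CHLD, GSA1, GSA2 and HEMA1. Without replicate values it cannot be said which neighbours in these orders differ beyond their spread.

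**Figure D1:**
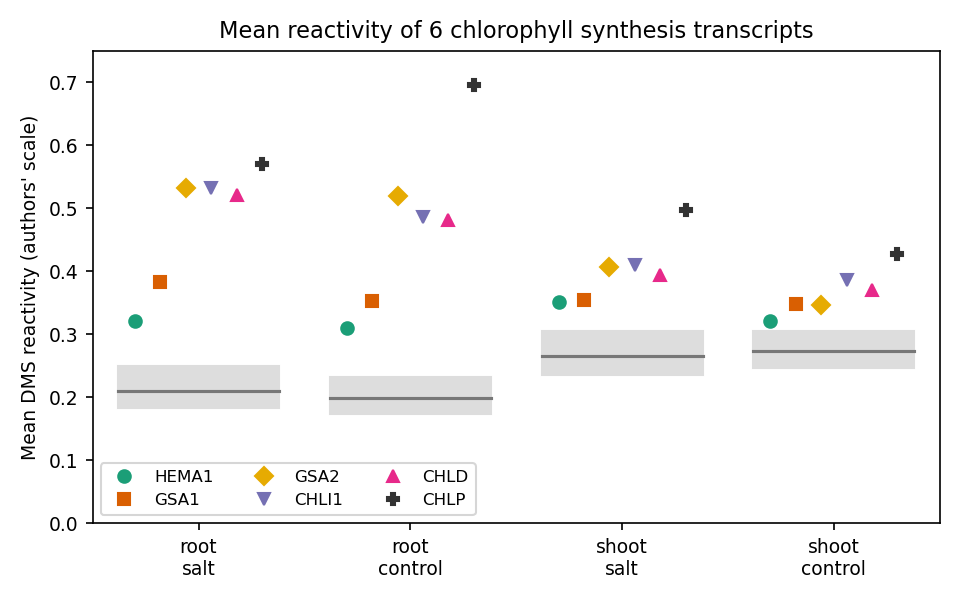
Mean DMS reactivity (vertical axis, the authors' scale) of the 6 transcripts in the 4 conditions (horizontal axis). Each symbol is 1 deposited value, the grey line is the median of 8956 loci and the grey box their interquartile range. Every member lies above the grey box in all conditions, from 0.310 (HEMA1) to 0.696 (CHLP) in control root.

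How reactivity was spread along the transcripts differed sharply between the organs. The Gini index runs from 0, when all bases are equally reactive, to 1, when few bases hold all reactivity. In shoots the members were more even than the median locus, though HEMA1 was close to it with salt (45.6% of loci lower). Their Gini indices were 0.546 to 0.682 in salt-treated shoot and 0.467 to 0.602 in control shoot, all 6 below the medians of all loci, 0.690 and 0.679. In roots they were more uneven than the median locus, though GSA1 was close to it without salt (51.9% of loci lower). The indices were 0.709 to 0.768 in salt-treated root and 0.681 to 0.801 in control root, all 6 above the medians of 0.687 and 0.678. CHLP had the widest gap between organs, at 0.768 in salt-treated root, 0.785 in control root, 0.546 in salt-treated shoot and 0.467 in control shoot. Only 0.156% of loci had a lower index than CHLP in control shoot, and 96.7% had a lower one in control root. In control shoot the index fell almost strictly with mean reactivity over all loci (rank correlation -0.99). The members' low indices there are therefore not a result apart from their high means.

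Single bases of great reactivity went with this. The highest reactivity of a base in CHLP was 4.92 in salt-treated root, 6.75 in control root, 2.165 in salt-treated shoot and 1.69 in control shoot. CHLI1 had 4.89 in salt-treated root, 5.84 in control root, 1.93 in salt-treated shoot and 1.96 in control shoot. GSA2 had 4.93 in salt-treated root, 4.48 in control root, 1.86 in salt-treated shoot and 1.59 in control shoot. These 3 transcripts, the most uneven in root, each held a base more than 2 times as reactive there as their highest base in shoot. HEMA1, at 2.765 in salt-treated root, 1.93 in control root, 2.2 in salt-treated shoot and 1.675 in control shoot, differed least. GSA1, at 3.10 in salt-treated root, 2.49 in control root, 1.89 in salt-treated shoot and 1.69 in control shoot, and CHLD, at 3.86, 3.865, 1.91 and 2.26 in the same order, lay between. The table's values end at 7, so the CHLP peak in control root is close to that bound. With the depth in root unknown, its part in such single high bases was not tested.

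Over all loci the medians of this highest reactivity ran the other way, at 1.39 in salt-treated root, 1.28 in control root, 1.78 in salt-treated shoot and 1.75 in control shoot. The standard deviation between bases of the members was 0.489 to 0.979 in salt-treated root, 0.439 to 1.26 in control root, 0.396 to 0.490 in salt-treated shoot and 0.350 to 0.363 in control shoot. The medians of all loci were 0.286, 0.264, 0.371 and 0.369 in the same order. All 6 members lay above them except in control shoots, where all 6 lay below. In control shoots it was nearly the same for all members, but also for most loci, with an interquartile range of 0.363 to 0.375. The members with higher means there had lower Gini indices, with GSA1 and GSA2 the exception. Across all loci the rank correlation (Spearman's rho) of mean reactivity with the Gini index was -0.28 in salt-treated root, -0.22 in control root, -0.79 in salt-treated shoot and -0.99 in control shoot. Mean and index come from the same bases, so these correlations are descriptions only.

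**Figure D2:**
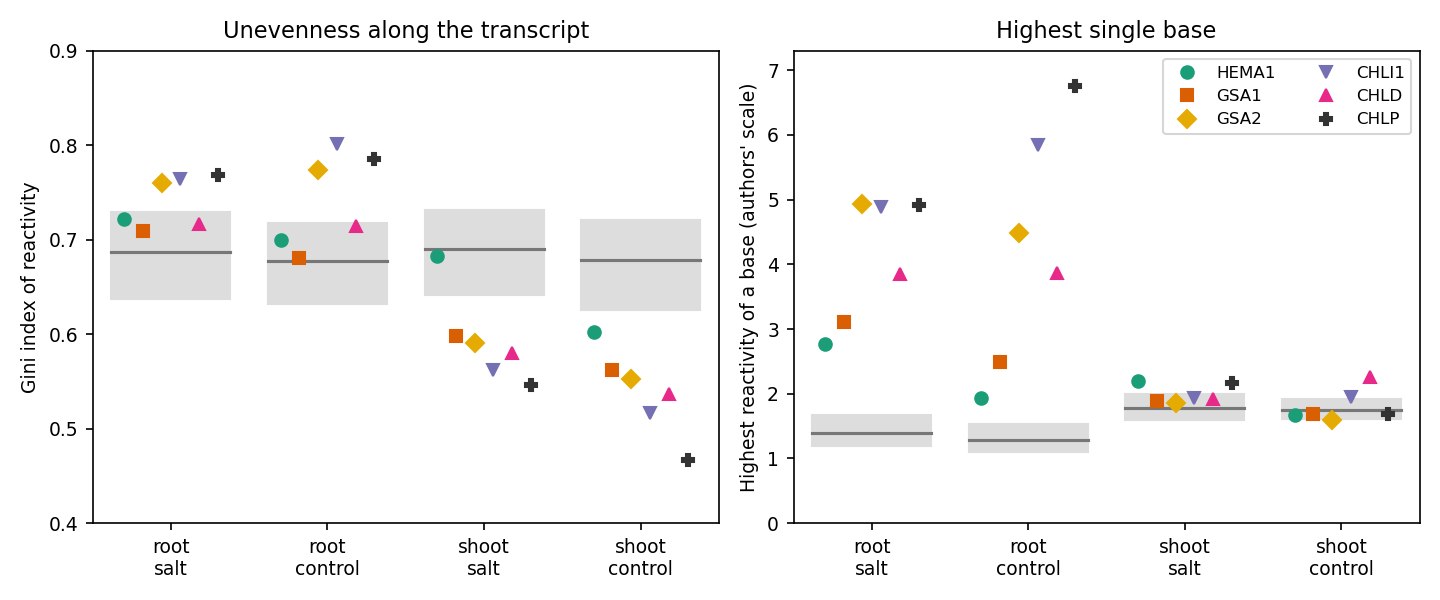
Gini index (left, 0 even to 1 held by few bases) and highest reactivity of a base (right, the authors' scale) in the 4 conditions. Symbols are the 6 members, the grey line is the median of 8956 loci and the grey box their interquartile range. Members lie below the all-loci median of the index in shoot and above it in root, and CHLP peaks at 6.75 in control root.

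The comparison of control roots with control shoots asks how the members differ between organs without salt. Mean reactivity was higher in root for 5 of 6 members, while only 7.44% of 8954 loci compared had a ratio above 0. CHLP was 1.63-fold higher in root (log2 ratio 0.71), GSA2 1.499-fold (0.58), CHLD by a log2 ratio of 0.38 and CHLI1 1.26-fold (0.33). GSA1 was nearly level at 0.020, and HEMA1 stood at -0.052, still above 91.4% of loci. The enzymes of the later steps and GSA2 thus lay well above HEMA1 and GSA1.

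The members' median log2 ratio was 0.36, against -0.45 for all loci, a distance of 0.81. Relative to that general shift CHLP stood at 1.16, GSA2 at 1.04, CHLD at 0.83, CHLI1 at 0.79, GSA1 at 0.47 and HEMA1 at 0.40. At a limit of 1.5-fold 1 member, CHLP, counted as higher, beside 0.469% of all loci, and none as lower, beside 25.3%. GSA2 lay just short of the limit. Loci were kept where the mean over both conditions reached 0.1, which all 6 members did in every comparison. The other 1467 loci of like level in control shoot, between 0.321 and 0.427, had a median log2 ratio of -0.40, and 24.1% lay above 0. This range was chosen after the values were seen. It runs from HEMA1, above 83.5% of loci there, to CHLP, above 99.9%, so single members are not matched in level. Whether level bears on the ratios was not tested.

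The Gini index was higher in control root for all 6 members, beside 42.0% of loci. The differences were 0.318 for CHLP, 0.285 for CHLI1, 0.221 for GSA2, 0.178 for CHLD, 0.119 for GSA1 and 0.098 for HEMA1, with a median of 0.20 against -0.007 for all loci. Of the 1467 loci of like level in control shoot, 65.2% had a higher index in control root, with a median difference of 0.017. The members furthest up in mean were mostly those furthest up in the index. What this adds to their means was not tested.

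Under salt each member kept the direction of its difference between organs, though not always its size. The ratio of salt-treated root over salt-treated shoot was above 0 for 5 of 6 members, beside 9.10% of 8948 loci. CHLD led with 1.32-fold (log2 ratio 0.40), followed by GSA2 with 1.31-fold (0.39) and CHLI1 with a log2 ratio of 0.38. CHLP, first without salt, came next with 1.15-fold (0.20), above GSA1 at 0.11, and HEMA1 was lowest at -0.13. The chelatase subunits kept their distance between organs, and CHLP came closer.

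The members' median was 0.29, against -0.32 for all loci. None of the members passed 1.5-fold, beside 0.246% of loci higher and 9.51% lower. Relative to the median of all loci, CHLD stood at 0.72, GSA2 at 0.71, CHLI1 at 0.70, CHLP at 0.52, GSA1 at 0.43 and HEMA1 at 0.19. The index was again higher in root for all 6, from 0.040 (HEMA1) to 0.222 (CHLP), beside 38.4% of loci and 48.9% of those of like level.

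The shoot comparison asks which way salt shifted the members in green tissue. All 6 had a slightly higher mean reactivity with salt, beside 37.3% of 8956 loci. GSA2 was 1.17-fold higher in salt-treated shoots (log2 ratio 0.23) and CHLP also 1.17-fold (0.22), each above 97.7% or more of loci. HEMA1 stood at 0.13, CHLD at 0.09, CHLI1 at 0.09 and GSA1 at 0.024. The GSA transcripts, equal in control shoots, were at opposite ends of the list.

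The median was 0.11, against -0.035 for all loci and 0.018 for the 1467 other loci of like level in control shoot. No member passed 1.5-fold, as was the case for nearly all loci, of which 0.0893% were higher and 0.435% lower by that much. Reactivity was also less even with salt. The Gini index was higher in all 6, by 0.080 for HEMA1, 0.079 for CHLP and 0.036 to 0.046 for the others, beside 73.4% of loci. Among the 1467 loci of like level in control shoot the index was higher in 91.0%, with a median difference of 0.027, so a higher index is common at this level. The standard deviation between bases was higher in all 6 as well (median log2 ratio 0.29, against 0.007 for all loci). The highest base was higher with salt in 4 members and lower in CHLD (log2 ratio -0.24) and CHLI1 (-0.019).

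The root comparison asks the same of roots, and there CHLP parted from the rest. Its mean reactivity was 0.819 times that of control roots with salt (log2 ratio -0.29), lower than in all but 1.2% of loci. The other members were slightly higher: CHLI1 at 0.13, CHLD at 0.12, GSA1 at 0.11, HEMA1 at 0.054 and GSA2 at 0.035. This is the common direction, since 80.1% of 8891 loci were above 0. The members' median was 0.084, against 0.088 for all loci. Relative to that median HEMA1 (-0.034) and GSA2 (-0.054) lay below.

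CHLP was lower in salt-treated root on every measure. Its highest base was 0.729 times as reactive as in control root, its standard deviation had a log2 ratio of -0.36, and its Gini index was lower by 0.017. No member passed 1.5-fold, beside 0.101% of loci higher and 0.427% lower. The index was higher with salt in 3 members, beside 66.1% of loci, with GSA1 at 0.028, HEMA1 at 0.023 and CHLD at 0.0022. It was lower in CHLI1 (-0.037), CHLP (-0.017) and GSA2 (-0.014). HEMA1 showed the greatest gain of a highest base, 1.43-fold.

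Salt ratios of root and shoot were then set against each other, as root minus shoot. All 6 members lay below the median difference of all loci, 0.12, and 3 of 6 lay above 0, beside 82.0% of 8891 loci. CHLP differed by -0.51, with a salt log2 ratio of -0.29 in root and 0.22 in shoot. Only 0.596% of loci had a lower difference. GSA2 followed at -0.20 and HEMA1 at -0.075, and CHLD (0.022), CHLI1 (0.044) and GSA1 (0.089) were the others. Root and shoot share no library here, but the difference itself could not be tested.

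The members' median difference was -0.026, and 0.022 without CHLP. With 3 members above 0 and 3 below, the sign of this median rests on an even split and not on CHLP alone. No member passed 1.5-fold, beside 0.619% of loci higher and 0.461% lower. CHLP missed the limit narrowly, at 0.702 times. The Gini difference with salt was lower in root than in shoot in all 6, by root minus shoot values of -0.0084 (GSA1) to -0.096 (CHLP), while 43.1% of loci had a difference above 0. Among the 1467 loci of like level in control shoot 22.8% did, with a median of -0.021, so a difference below 0 is the common direction there.

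**Figure D3:**
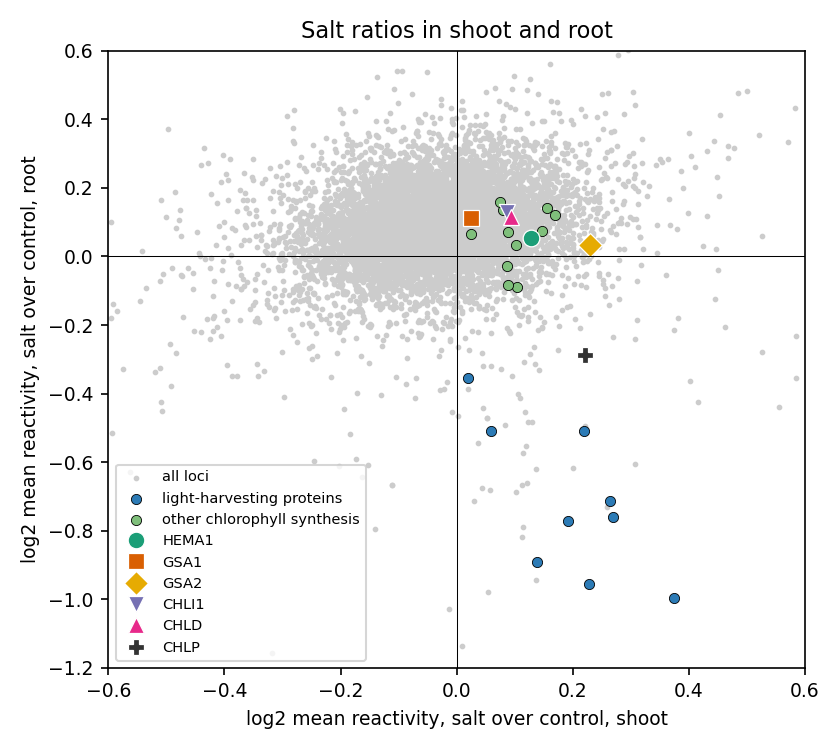
Salt log2 ratio of mean reactivity in root (vertical axis) against that in shoot (horizontal axis). Grey points are 8889 loci, of which 44 lie outside the axes; coloured symbols are the 6 members, green points other chlorophyll synthesis genes and blue points light-harvesting proteins. All members lie right of 0, and CHLP alone of them lies below 0, towards the light-harvesting proteins.

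The rest of the pathway was measured in part. Of 23 further chlorophyll synthesis genes listed by locus, 11 were in the table. In salt-treated shoots all 11 were above 0, beside 37.3% of all loci, with a median log2 ratio of 0.09. GBP, which binds glutamyl-tRNA reductase, was highest at 0.17 and the magnesium protoporphyrin methyltransferase CHLM next at 0.16. ERS, a glutamyl-tRNA synthetase, at 0.024 and FLU, a negative regulator of precursor synthesis, at 0.074 were lowest. Together with the members, 17 of 17 measured transcripts of the pathway were above 0, beside 37.3% of all loci and 58.4% of the 1467 loci of the members' level.

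With salt in root the 11 genes had a median of 0.072, with 8 above 0. That share is near the 80.1% of all loci. FLU at 0.16 and CHLM at 0.14 were highest, and HEME2, a uroporphyrinogen decarboxylase, at -0.089 and PPOX1, a protoporphyrinogen oxidase, at -0.085 lowest. All 11 lay above CHLP, at -0.29. In the difference of salt ratios all 11 lay below the median of all loci, from HEME2 at -0.19 and PPOX1 at -0.17 to HEMB1 at 0.057 and FLU at 0.083.

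Between control organs 8 of the 11 were above 0, beside 7.44% of all loci, with a median log2 ratio of 0.23. HEMC, a porphobilinogen deaminase, at 0.58 and HEME2 at 0.39 were highest, HEMA2 at -0.31 and PPOX2 at -0.28 lowest. HEMA2 and PPOX2 are the second isoenzymes of their steps. HEMA1, at -0.052, lay above HEMA2, and PPOX1, at 0.22, above PPOX2. The GSA pair went the other way, with GSA2 at 0.58 above GSA1 at 0.020. Under salt 9 were above 0, beside 9.10% of all loci, with a median of 0.18, HEMC (0.51) and FLU (0.35) highest, and PPOX2 (-0.35) and HEMA2 (-0.33) lowest. The index was higher in root than in shoot for all 11, beside 38.4% of loci under salt and 42.0% without salt. Of the loci of the members' level, which not all of the 11 share, 48.9% were higher under salt and 65.2% without.

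**Figure D4:**
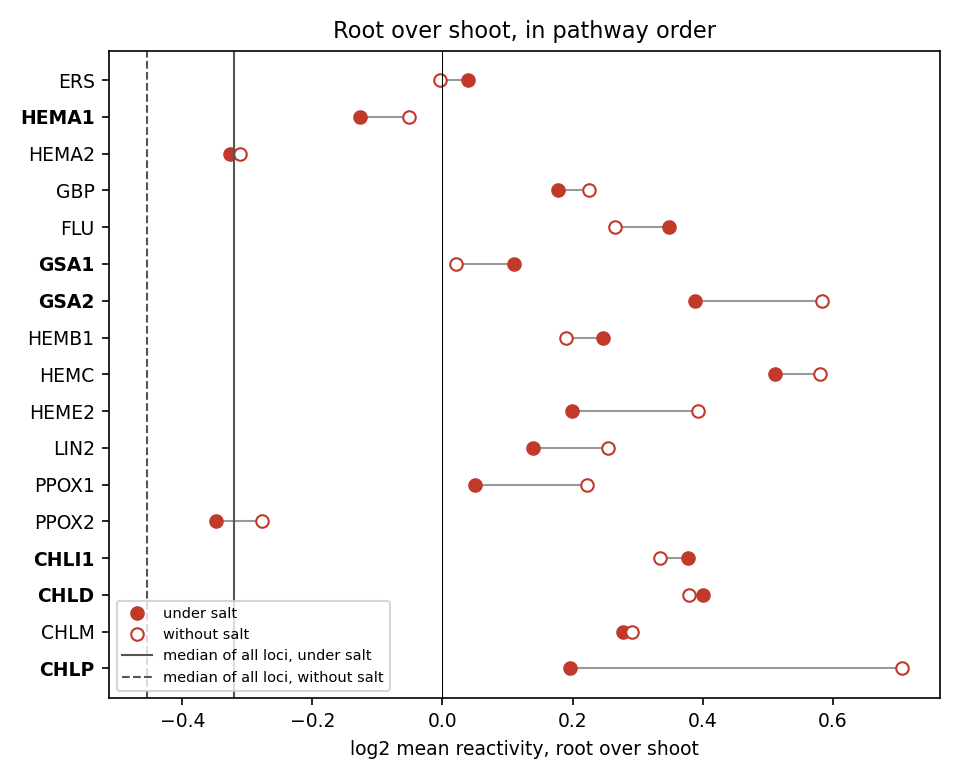
Log2 ratio of mean reactivity, root over shoot (horizontal axis), for the 17 pathway transcripts in the order of their steps, with regulators of the first steps beside them and members in bold. Filled circles are under salt, open circles without salt, and vertical lines the medians of all loci (-0.32 and -0.45). The widest gap between salt and no salt is that of CHLP, 0.20 and 0.71.

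The proteins that bind the finished pigment set the members' values in relief. Of 20 light-harvesting chlorophyll proteins, 9 were in the table. In control root over control shoot their median log2 ratio was 0.47, from LHCB1.3 (0.18) and LHCA2 (0.19) to LHCB6 (0.75) and LHCB1.5 (0.80), close to the members' 0.36. In salt-treated shoots their median was 0.22, from LHCB4.1 (0.019) and LHCA2 (0.059) to LHCB6 (0.27) and LHCB1.5 (0.38). With salt in root they parted from the members: all 9 lay below 0 with a median of -0.76, from LHCB1.5 (-0.997) and LHCB1.2 (-0.95) to LHCA4 (-0.51) and LHCB4.1 (-0.35). The lowest member, CHLP at -0.29, lay above the highest of the 9. Under salt the root over shoot ratio of the 9 had a median of -0.46, from LHCB1.3 (-0.85) and LHCA1 (-0.74) to LHCB6 (-0.27) and LHCB4.1 (0.15), against 0.29 for the members. Their difference of salt ratios had a median of -0.98, from LHCB1.5 (-1.37) and LHCB1.2 (-1.18) to LHCA2 (-0.57) and LHCB4.1 (-0.37). LHCB1.1, LHCB1.2, LHCB1.3 and LHCB1.5, the lowest of the 9 with salt in root, belong to 1 gene family. Reads shared between them would make their values uncertain and less than separate.

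The light-harvesting transcripts were as uneven in root as the most uneven members. Their median Gini index was 0.780 in salt-treated root, 0.800 in control root, 0.554 in salt-treated shoot and 0.483 in control shoot. The members' medians were 0.741, 0.744, 0.586 and 0.545 in the same order. CHLP, with the lowest salt ratio of the members in root, had an index within the light-harvesting range in all 4 conditions. CHLI1, with the highest salt ratio of the members in root (0.13), was within that range in all but salt-treated root. There it lay just below, at 0.7642 against a lowest light-harvesting value of 0.7644. The part of the index in the salt ratios was not tested.

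Branches that leave the pathway looked different. Of 5 genes of the heme and bilin branch 4 were in the table, and their median root over shoot ratio without salt was -0.45, against -0.45 for all loci. UPM1, an enzyme of siroheme synthesis, stood at -0.73, the heme oxygenase HY1 at -0.53, the ferrochelatase FC1 at -0.37 and the phytochromobilin synthase HY2 at 0.12. Under salt these ratios were -0.64, -0.76, -0.18 and 0.028 in the same order. With salt in shoot FC1 was at -0.17, HY2 at 0.0099, HY1 at 0.05 and UPM1 at 0.09. With salt in root HY1 was at -0.18, HY2 at -0.085, FC1 at 0.029 and UPM1 at 0.18. Their differences of salt ratios, root minus shoot, were -0.23 for HY1, -0.095 for HY2, 0.086 for UPM1 and 0.19 for FC1.

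Of 10 genes of chlorophyll breakdown 2 were in the table. The pheophytinase PPH was at -0.16 and the red chlorophyll catabolite reductase ACD2 at -0.067 with salt in shoot, below all members. In root they were at 0.015 and -0.15. Root over shoot they stood at -0.18 and 0.22 without salt and at -0.0086 and 0.15 under salt, and their tissue differences were 0.17 and -0.078. Of 6 regulators 2 were in the table. HY5, a light-response transcription factor, was at -0.32 with salt in shoot and 0.19 in root, and at -1.15 root over shoot without salt and -0.64 under salt. Its root means were low, at 0.12 in salt-treated root and 0.11 in control root, so its ratios with root are uncertain. GUN1, of plastid-to-nucleus signalling, was at 0.087 with salt in shoot and 0.10 in root, and at -0.16 root over shoot without salt and -0.15 under salt. Their tissue differences were 0.51 and 0.018.

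The profile closest to the members' median, over the salt ratios of shoot and root and the control ratio of root over shoot, was sought among 8855 loci outside the lists. The members' median profile was 0.11, 0.084 and 0.36. By Euclidean distance AT5G11480 was nearest (0.023), with 0.12, 0.10 and 0.36 in the same order. PDE312 (distance 0.030), AT5G46420 (0.037), AT2G24060 (0.046) and CPN60B (0.050), a plastid chaperonin subunit, followed. The median distance of all loci was 0.84. The likeness is over 3 ratios made from 4 conditions.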

How the data were processed

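Structure-seq2 libraries were made from 24 samples in 8 groups of 3 replicates, giving 4 conditions. Per the file headers, the authors deposited 3 scores per transcript and condition (highest, mean and standard deviation of DMS reactivity) and the Gini index, a fraction. Replicates had been combined by the authors. Aligner, genome build, normalization and any coverage filter: not given in the sources used here. No coordinates are printed.

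From these values, the lowest-numbered isoform of each locus was kept (8956 loci). Log2 ratios of mean reactivity had no pseudocount and needed a mean of 0.1 over both conditions. Gini indices were subtracted. Percentiles give the share of loci with a lower value. A 1.5-fold limit served for counts. The calculation of ratios was tested on simulated 2-fold changes of mean reactivity only. These are larger than any salt ratio of the members, and Gini differences were not simulated. Python 3.11.15, pandas 2.3.3, NumPy 2.4.6 and matplotlib 3.10.9 were used.

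Members and gene lists were chosen with earlier results of these data known. Named genes are the 6 members, the 2 highest and 2 lowest of each list per comparison, and the 5 loci nearest to the members' median profile. Symbols come from the lists and the TAIR10.1 gene table, which held all 10 listed loci. Alternatives were other minima, isoforms, limits, a pseudocount, centring, leaving out GSA1 and GSA2, and the standard deviation over the mean. Leaving out CHLP was added after seeing the data.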

Additional observations from a re-analysis of the deposited data

Results flagged for a closer look

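CHLP was the member whose salt ratio pointed in opposite directions in the organs, -0.29 in root and 0.22 in shoot, a difference of -0.51 on the log2 scale. After centring each organ on the median of all loci the ratios were -0.38 and 0.26. Of 8889 loci compared in both organs, 5.74% were, like CHLP, higher with salt in shoot and lower in root before centring. The pattern was not particular to CHLP among related genes. It held for all 9 light-harvesting transcripts, for 3 of the 11 other chlorophyll synthesis genes, and for HY1 and HY2. With 1 combined value per condition the difference was not tested.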

How the results depend on the processing

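No paired analysis was possible because the deposited values combine the replicates of each condition. For medians a shift of over 1.5 times, and for counts a ratio of over 1.5, was taken as a move. Centring on the median of all loci moved the members' median to 0.61 for root over shoot under salt, 0.81 without salt and -0.15 for the tissue difference, and turned salt in root to -0.0047. It moved the Gini difference of salt in root to -0.014. Centred counts of members past 1.5-fold were 3 higher in root under salt, 4 without salt and 1 lower (CHLP) in the tissue difference. With the lower alternative limit they were also 3, 4 and 1, and with a 2-fold limit 0 were higher in root without salt. Without CHLP that count was 0, the tissue difference turned to 0.022 and the Gini difference of salt in root to 0.0022. The members' other medians and counts kept their direction and stayed within 1.5 times under the alternatives run, except that the standard deviation over the mean, set in place of the Gini index, is a log2 ratio and was compared by direction only, which it kept in all 5 comparisons.

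Among single members, centring turned the tissue difference of CHLD (-0.10), CHLI1 (-0.081) and GSA1 (-0.035), salt in root of GSA2 (-0.054) and HEMA1 (-0.034), and root over shoot of HEMA1 under salt (0.19) and without (0.40). Among lists it turned salt in root of other chlorophyll synthesis (-0.017), root over shoot without salt of the heme and bilin branch (0.0027) and the tissue difference of chlorophyll breakdown (-0.076). The breakdown list, of 2 loci, turned with all isoforms: -0.0086 root over shoot under salt, -0.18 without salt and 0.015 for salt in root. All isoforms also moved other chlorophyll synthesis to 0.13 for salt in root and -0.015 for the tissue difference, and breakdown to 0.17 for the tissue difference. The heme and bilin tissue difference turned to 0.050 with a minimum of 0.2 and 0.0078 with the highest-numbered isoform. Read depth is unknown, and every value rests on 1 combined number per condition.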
